A study of Mus musculus with 12 samples.

Results

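Cells that had received FGF2 while their FGF receptors were inhibited were compared with cells that had received neither agent. The mouse line Ocy454 was used, an osteocyte-like line that is grown at a low temperature and matures after a shift to a higher one. The members are the 3 libraries named here BGJ398+FGF2 and the 3 named DMSO, 6 of the 12 libraries of the series, chosen by their titles. Cells of every group had matured for 5 days and were given a pretreatment of 1 h, either with 200 nM BGJ398, an inhibitor of all FGF receptor kinases, or with its vehicle DMSO. Treatment then lasted 48 h, to differentiation day 7. BGJ398+FGF2 cells received the inhibitor with 2 ng/mL FGF2, and DMSO cells received the vehicle alone. The other two groups, also of 3 libraries each, were DMSO+FGF2 (vehicle with 2 ng/mL FGF2) and BGJ398 (200 nM inhibitor alone). The question was whether inhibited cells given FGF2 sat at the level of the vehicle, fell short of it on the side of FGF2, or lay past it on the other side. All groups come from 1 cell line on culture plastic, and the vehicle cells were grown in medium with serum, so DMSO is a state with whatever receptor activity the cells had there and not one without it.

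FGF receptors are tyrosine kinases that dimerize when FGF binds them together with heparan sulfate. Through the docking protein FRS2 they switch on Ras and the kinase ERK, and ERK in turn induces its own brakes, the Sprouty and Spred proteins and the dual-specificity phosphatases, together with ETS transcription factors such as Etv4 and Etv5. In cells of the osteoblast lineage FGF signaling is known to hold back the mineralizing program and to keep cells proliferating. BGJ398 blocks the kinase domain, so it acts on signals from added FGF2 and on those from FGF already in the culture.

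The libraries held between 18951710 and 27716975 reads, with 12103 to 12470 genes at 10 reads or more. Whether the 3 libraries of a group came from separate cultures is not stated in the labels, so the spread behind each p-value is that of triplicates and may be technical. Osteoblast genes were well expressed: Col1a1, a chain of type I collagen, averaged 9485 CPM (a gene's share of all reads, scaled between libraries) in DMSO and 9861 CPM in BGJ398+FGF2, and Runx2, the master regulator of osteoblasts, averaged 122 and 117 CPM. The defining genes of late osteocytes were absent or nearly so. Over the 6 libraries Dmp1 gave 17 reads and Fgf23 gave 4, and no read fell on Sost or on Mepe (0 each). Defining markers of macrophages, endothelium, fat and muscle were at or near 0, while some lists of other cell types held genes these cells express. The 10 macrophage markers summed to between 5.43 and 5.61 CPM in DMSO and between 5.66 and 7.32 CPM in BGJ398+FGF2, and the 10 endothelial markers to 4.85 to 5.86 and 6.30 to 6.61 CPM. The 7 tendon markers summed to 2178 to 2219 CPM in DMSO and 2250.5 to 2397 CPM in BGJ398+FGF2, most of it Fmod, a matrix proteoglycan, with Tnmd at 0 reads. The 12 muscle markers summed to 137 to 141 and 119 to 153 CPM, the 14 chondrocyte markers to 38.6 to 40.2 and 31.9 to 44.6 CPM, and the 10 adipocyte markers to 24.9 to 25.99 and 20.3 to 28.4 CPM. Among the most defining genes, Adgre1, Emcn, Adipoq and Myod1 had 0 reads, and Ptprc and Cdh5 had 2 each. In such bulk RNA, fewer cells of a type and less RNA per cell cannot be told apart. Mitochondrially encoded genes took 1.70% to 1.83% of reads in DMSO and 1.88% to 2.11% in BGJ398+FGF2, so these shares did not overlap, and their part in the results below was not tested.

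In all, 3 libraries stood apart from their own groups in the same way. On the main axis of deviations from group means, which held 22.7% of them, BGJ398+FGF2 replicate 2 lay at 27.98, DMSO+FGF2 replicate 2 at 14.6 and BGJ398 replicate 1 at 13.3, while no other library was above 2.16. At the negative end BGJ398+FGF2 replicates 3 and 1 lay at −16.1 and −11.9, DMSO+FGF2 replicate 3 at −10.4 and BGJ398 replicate 3 at −9.88. A member is therefore among the 3 libraries at the positive end, and counts are given with and without those 3.

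Inhibited cells given FGF2 came close to the vehicle. Of the 92 genes that still differed, 59 lay past it, 2 fell short of it and 31 could not be placed on a side. By edgeR's quasi-likelihood test these were 92 of 12542 tested genes, or 0.734%, at an adjusted p of 0.05. Of these, 44 were higher (0.351%) and 48 lower (0.383%). Without regard to the test, the libraries of the groups did not overlap for 2397 genes (19.1%), and 1698 (13.5%) had an unadjusted p under 0.05. The changes were small: 4 genes passed the test with a difference of at least 2-fold, 1 higher (0.00797%) and 3 lower (0.0239%), and 3 of those 4 are near-identical copies of other genes. The fourth was the elastin gene Eln. For 10388 genes (82.8%) the 95% confidence interval of the fold change lay within 1.5-fold of the vehicle in either direction.

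To give each gene a side, DMSO+FGF2 was compared with BGJ398, a contrast that shares no library with the comparison itself. It called 2453 genes (19.6%), of which 1314 (10.5%) were higher with active receptors and 1139 (9.08%) higher with blocked receptors. Both contrasts came from the same fit, with shared scaling and a shared estimate of spread per gene, so their calls are not independent. Without BGJ398+FGF2 replicate 2, a library outside the contrast, DMSO+FGF2 against BGJ398 called 3182 genes. Of the 1314 genes on the active side, 1137 (86.5%) had an interval within 1.5-fold of the vehicle in BGJ398+FGF2, 32 (2.44%) were called past it, meaning lower than in DMSO, and 1 (0.0761%) was called short of it. The other 144 (11%) were unresolved, with an interval that reached beyond 1.5-fold and no call. On the blocked side 967 of 1139 genes (84.9%) were within 1.5-fold, 27 (2.37%) were past the vehicle, 1 (0.0878%) was short of it and 144 (12.6%) were unresolved. Among the 10089 genes with no side, 8233 (81.6%) were within 1.5-fold and 31 (0.307%) were called. Of the 48 lower genes 32 (66.7%) were on the active side, beside 10.5% of all genes tested. Of the 44 higher genes 27 (61.4%) were on the blocked side, beside 9.08%. Both contrasts also differ by the inhibitor, with opposite sign. A gene that BGJ398 moves alike with and without FGF2 therefore tends to be placed past the vehicle by design. For this reason, and since the contrasts share a fit, these shares are a description and not independent agreement. The median log2 fold change was −0.06 on the active side, 0.08 on the blocked side and 0.0013 over all genes.

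**Figure D1:**
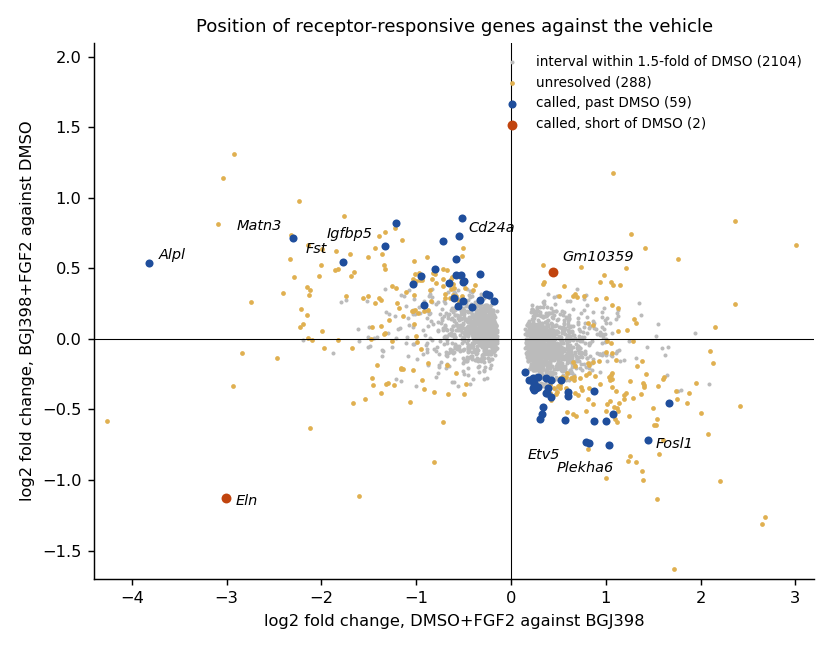
Each point is 1 of the 2453 genes called between DMSO+FGF2 and BGJ398. The x axis gives its log2 fold change there. The y axis gives that between BGJ398+FGF2 and DMSO, which uses other libraries in the same fit and holds the inhibitor with opposite sign. Genes past the vehicle (59, dark blue) fill the upper left and lower right corners, Eln and the pseudogene Gm10359 are the 2 short of it, and 6 genes with more extreme values, none of them called, lie outside the axes.

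The single protein-coding gene short of the vehicle was Eln (ENSMUSG00000029675), which encodes elastin, the extensible core of elastic fibers. It had 13.1, 13.1 and 16.8 CPM in DMSO and 6.47, 6.24 and 7.06 CPM in BGJ398+FGF2. With FGF2 and no inhibitor it had 0.976, 0.938 and 1.52 CPM, and with the inhibitor alone 12.3, 7.76 and 7.396. Every BGJ398+FGF2 library was below every DMSO library and above every DMSO+FGF2 library, and one BGJ398 library was far above the other two. Eln was 2.18-fold lower than in the vehicle, a log2 change of −1.12 ± 0.19 (SE; adjusted p = 0.0196) with a 95% interval of −1.53 to −0.72. Its direct comparison with BGJ398 alone did not pass the test, at −0.47 ± 0.19 (SE; adjusted p = 1).

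Receptors for FGF and their signaling partners were mostly within 1.5-fold of the vehicle. Of 16 tested genes for FGF receptors and proximal signaling 14 had such an interval, beside 82.8% of all genes. By edgeR 0 were called, which at 0.734% of all genes is near the background for a list of this size. At an unadjusted p under 0.05 there were 6, 3 higher and 3 lower, beside 13.5% of all genes. DESeq2 and limma-voom called 1 each. Fgfr1, a receptor for FGF2, had 249, 244 and 262 CPM in DMSO and 229, 216 and 253 in BGJ398+FGF2, groups that overlapped, with a log2 change of −0.11 ± 0.06 (SE; adjusted p = 0.462). Fgfr2 had 120.3, 118 and 117 CPM and 135, 124 and 149 CPM, all higher with BGJ398+FGF2, and a log2 change of 0.20 ± 0.07 (SE; adjusted p = 0.201). DMSO+FGF2 cells had 67.5 CPM of Fgfr2 on average. Fgfr2 passed the test (adjusted p = 0.00314) once the 3 libraries that deviated together were left out. Fgfr3 had a log2 change of −0.02 ± 0.10 (SE; adjusted p = 0.964), and Fgfr4 had 1 read in the 6 libraries. The gene that both other tools called was Shc1, an adaptor that couples receptors to Ras, at −0.21 ± 0.04 (SE; adjusted p = 0.0502). The 5 tested FGF ligands gave 0 edgeR calls, beside 0.734% of all genes. At an unadjusted p under 0.05 there were 2, beside 13.5% of all genes. DESeq2 called 1 and limma-voom 0. Fgf7, a ligand made by mesenchymal cells, was at −0.34 ± 0.09 (SE; adjusted p = 0.125).

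Among the brakes that ERK induces, Spred2 was below the vehicle, and edgeR called no other. Of the 18 tested feedback inhibitors 1 was called lower and 0 higher, beside 0.383% and 0.351% of all genes. At an unadjusted p under 0.05 there were 9, beside 13.5% of all genes. In all 14 had a log2 fold change below 0, and the list's median was −0.19. DESeq2 called 4 lower, Spred2, Spred1, Spred3 and Dusp6. The member edgeR called was Spred2, which blocks the activation of Raf by Ras. It had 54.7, 51.9 and 54.96 CPM in DMSO and 41.9, 36.4 and 43.3 CPM in BGJ398+FGF2. All 3 inhibited libraries were below all 3 vehicle libraries, 1.33-fold on average, with a log2 change of −0.41 ± 0.08 (SE; adjusted p = 0.0379). Spred2 averaged 60.3 CPM in DMSO+FGF2 and 39.8 CPM in BGJ398.

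The classical ERK readouts among these genes did not pass the test. Dusp6, the phosphatase that inactivates ERK in the cytoplasm, had 24.5, 18.7 and 17.6 CPM in DMSO and 12.1, 14.7 and 14.7 CPM in BGJ398+FGF2. The groups did not overlap, and the log2 fold change was −0.55 ± 0.13 (SE; adjusted p = 0.08) with an interval of −0.82 to −0.27. DMSO replicate 1 was the highest of the 6. Dusp6 was called by DESeq2 (adjusted p = 0.00607), with no filter on low counts (adjusted p = 0.0118) and by edgeR without the 3 deviating libraries (adjusted p = 0.0212). Dusp4, a nuclear phosphatase of the same family, had 3.79, 3.304 and 3.596 and 2.58, 1.88 and 2.700 CPM, again without overlap, at −0.57 ± 0.16 (SE; adjusted p = 0.134). The Sprouty genes Spry1, Spry2 and Spry4 had log2 fold changes of −0.20 ± 0.07 (SE; adjusted p = 0.227), −0.43 ± 0.13 (SE; adjusted p = 0.161) and −0.82 ± 0.36 (SE; adjusted p = 0.339), and Spred1 one of −0.28 ± 0.06 (SE; adjusted p = 0.0672). Spred3, a relative of Spred2, was at −0.63 ± 0.17 (SE; adjusted p = 0.119). For Spry4 the counts were low, at a mean of 0.942 CPM in DMSO and 0.532 CPM in BGJ398+FGF2.

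Among 21 tested transcription factor and early-response genes downstream of ERK, 2 were called lower and 1 higher, beside 0.383% and 0.351% of all genes, with a list median of 0.11. Etv5, an ETS factor that follows FGF signaling closely in many tissues, had 17.8, 14.8 and 15.4 CPM in DMSO and 10.1, 9.36 and 9.28 CPM in BGJ398+FGF2. Every inhibited library was lower, and the log2 fold change was −0.73 ± 0.10 (SE; adjusted p = 0.00527). Etv5 averaged 17.3 CPM in DMSO+FGF2 and 9.99 CPM in BGJ398, so the vehicle was near the FGF2 level and both inhibited groups were well below it. Of its 31-base sequences 30.3% occur in another gene too, which makes its count less certain. Fosl1, a component of AP-1, went from 7.79, 6.499 and 6.37 CPM to 4.43, 3.93 and 4.17 CPM, a log2 change of −0.71 ± 0.14 (SE; adjusted p = 0.0397), and averaged 12.4 CPM in DMSO+FGF2. Ets2, another ETS factor, moved the other way at 0.28 ± 0.05 (SE; adjusted p = 0.0328), from 166, 164 and 164 CPM to 205, 187 and 209 CPM. Etv4 had a log2 change of −0.98 ± 0.23 (SE; adjusted p = 0.0823) and Etv1 one of −1.01 ± 0.39 (SE; adjusted p = 0.267), on means of 4.31 and 1.27 CPM in DMSO. Etv4 was called by DESeq2 (adjusted p = 0.00536), with no filter on low counts (adjusted p = 0.0201) and by edgeR without the 3 deviating libraries (adjusted p = 0.0127). The immediate-early gene Egr1 and the growth regulators Myc and Ccnd1 were at 0.11 ± 0.08, 0.11 ± 0.05 and −0.22 ± 0.07, and none passed the test.

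Promoter sequence is shown for Spred2 and Etv5, outputs of the pathway that were lower than in the vehicle and held an ETS core. Fosl1, also called lower, gave no match, whether for lack of a motif or of a sequence, and is not shown. The sequences are the bases before the annotated start in the RefSeq table of build GRCm38.p6, read on the gene's strand, and capitals mark the core of ETS binding sites, GGAAGT, found on either strand (ACTTCC is its reverse complement). The first is Spred2, chr11:19924364-19924441 on the plus strand, with the match starting 33 bases before the start of the gene. The second is Etv5, chr16:22438535-22438618 on the minus strand, with the match starting 217 bases before it.
Spred2: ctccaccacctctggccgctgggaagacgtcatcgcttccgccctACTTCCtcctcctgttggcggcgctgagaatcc
Etv5: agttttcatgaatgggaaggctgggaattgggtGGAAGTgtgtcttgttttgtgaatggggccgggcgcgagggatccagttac
The motif was common: 26.4% of the 9560 tested genes with a sequence held it in the 250 bases before the start. It was in 8 of the 27 lower genes that had a sequence (29.6%) and in 5 of the 30 higher ones (16.7%). An AP-1 site, TGAGTCA on either strand, was in 2 of the 27 lower and 1 of the 30 higher genes, beside 3.94% of tested genes. A RUNX site, TGTGGT on either strand, was in 5 and 4, beside 12.6%. A match describes letters in a window and does not show that a factor binds there.

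Sterol genes gave the most lower calls of the lists examined. Of 23 tested genes of cholesterol synthesis and uptake 9 were called lower and 0 higher, beside 0.383% and 0.351% of all genes. In all, 22 of the 23 had a log2 fold change below 0, and the median was −0.31. Cells make cholesterol through the mevalonate pathway, and the transcription factor SREBP2, encoded by Srebf2, is known to switch on its enzymes when sterols are low. Sqle, squalene epoxidase, had 117, 119 and 115 CPM in DMSO and 90.2, 89.2 and 94.6 CPM in BGJ398+FGF2, a log2 change of −0.36 ± 0.05 (SE; adjusted p = 0.0073). Insig1, which retains the SREBP complex in the endoplasmic reticulum, had 83.4, 92.2 and 86.2 CPM and 58.7, 60.8 and 68.3 CPM, at −0.48 ± 0.07 (SE; adjusted p = 0.0138). For both genes every inhibited library lay below every vehicle library.

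Other called sterol genes were enzymes along the route and its regulator, and none of those named overlapped between the groups. Hmgcs1, which makes HMG-CoA, was at −0.40 ± 0.07 (SE; adjusted p = 0.0191). Fdps, which makes farnesyl pyrophosphate, was at −0.38 ± 0.06 (SE; adjusted p = 0.0152) and has 27.9% of its 31-base sequences in common with other genes. Lss, lanosterol synthase, was at −0.34 ± 0.07 (SE; adjusted p = 0.0352) and Srebf2 itself at −0.31 ± 0.07 (SE; adjusted p = 0.0489). Members near or above the vehicle were Cyp51, a sterol demethylase, at −0.03 ± 0.05 (SE; adjusted p = 0.836) and Ebp, a sterol isomerase, at 0.18 ± 0.07 (SE; adjusted p = 0.257).

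The 4 groups did not place these genes alike. The summed CPM of the list was 1895 to 1978 in DMSO, 1708 to 1796 in DMSO+FGF2, 1575 to 1658 in BGJ398 and 1548 to 1673 in BGJ398+FGF2. Thus FGF2 without the inhibitor was below the vehicle in sum as well. For Insig1 the DMSO+FGF2 mean was 79.3 CPM, near the vehicle mean of 87.3, and BGJ398 alone had 62.7 CPM. Fdps had 124 CPM in DMSO+FGF2, 124 in DMSO and 95.7 in BGJ398. Hmgcs1 was highest in the vehicle, with means of 97.2 CPM in DMSO, 76.99 in DMSO+FGF2, 74.3 in BGJ398 and 73.5 in BGJ398+FGF2. So was Sqle, with means of 117 CPM in DMSO, 100.6 in DMSO+FGF2, 94.9 in BGJ398 and 91.3 in BGJ398+FGF2. Accordingly 6 of the 9 lower sterol genes were on the active side of the contrast between DMSO+FGF2 and BGJ398, and 3, among them Sqle and Hmgcs1, were on neither. The count of 9 depended on the vehicle libraries, with 4, 0 and 1 genes called without DMSO replicates 1, 2 and 3 and 1 without BGJ398+FGF2 replicate 1. It was 5 without BGJ398+FGF2 replicate 2, BGJ398 replicate 2 or 3, or DMSO+FGF2 replicate 1 or 3, and 15 without the 3 deviating libraries.

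Of the 4 called sterol genes with a promoter sequence, Hmgcs1 held an SREBP site, TCACNCCAC on either strand, a motif added after the sterol genes were seen to change. The window is chr13:119690169-119690267 of GRCm38.p6 on the plus strand, the match in capitals starts 137 bases before the start of the gene, and its end overlaps an ETS core on the other strand.
Hmgcs1: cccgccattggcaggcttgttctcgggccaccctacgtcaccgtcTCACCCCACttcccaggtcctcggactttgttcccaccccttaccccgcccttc
The same motif was in 1.23% of the 9560 tested genes with a sequence.

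**Figure D2:**
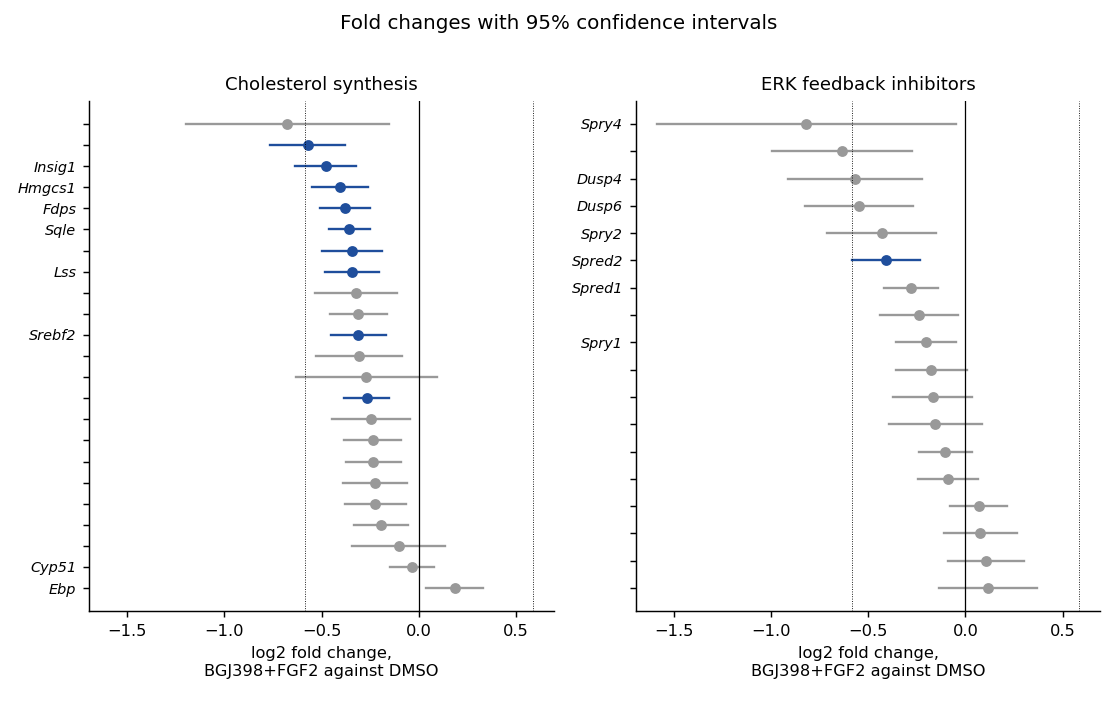
Log2 fold changes of BGJ398+FGF2 against DMSO with 95% confidence intervals for the 23 tested cholesterol genes (left) and the 18 tested ERK feedback inhibitors (right); genes named in the text are labelled, dark blue marks genes past an adjusted p of 0.05 and dotted lines mark 1.5-fold. In the left panel 9 genes are called and 22 lie below 0, and in the right panel 1 is called and 14 lie below 0.

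Alkaline phosphatase and osteonectin were called past the vehicle, and the other osteoblast genes were not called. Both calls were lost when any single DMSO library was left out. Of 22 tested osteoblast genes 2 were called higher and 0 lower, beside 0.351% and 0.383% of all genes. Over the 22 members, these 2 included, 11 were above 0 and 11 below, with a median of 0.0096. At an unadjusted p under 0.05 there were 10, 5 higher and 5 lower, beside 13.5% of all genes. Alpl (ENSMUSG00000028766), whose enzyme releases phosphate needed to form mineral, had 12.4, 11.8 and 11.9 CPM in DMSO and 18.1, 15.8 and 18.3 CPM in BGJ398+FGF2. All inhibited libraries were above all vehicle libraries, 1.45-fold on average with a log2 change of 0.54 ± 0.10 (SE; adjusted p = 0.0306). With FGF2 and no inhibitor Alpl had 1.29, 1.58 and 1.09 CPM, and with the inhibitor alone 17.7, 18.5 and 20.2 CPM. Sparc, the collagen-binding protein osteonectin, had 2555, 2641 and 2643 CPM and 3072, 3245 and 2963 CPM, at 0.24 ± 0.05 (SE; adjusted p = 0.0389), beside a mean of 1607 CPM in DMSO+FGF2.

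The remaining bone genes did not pass the test. Sp7, the transcription factor osterix, had 23.1, 19.5 and 20.5 CPM in DMSO and 23.3, 26.3 and 26.5 CPM in BGJ398+FGF2, with a log2 change of 0.27 ± 0.10 (SE; adjusted p = 0.23). Runx2 was at −0.05 ± 0.09, the homeobox factor Dlx5 at −0.12 ± 0.08 and Col1a1 at 0.06 ± 0.09, all with intervals within 1.5-fold. DESeq2 called 2 of them in opposite directions, Pth1r, the parathyroid hormone receptor, higher and the osteocalcin gene Bglap2 lower. Bglap2 was at −0.87 ± 0.21 (SE; adjusted p = 0.0952), the other osteocalcin gene Bglap at −1.05 ± 0.41 (SE; adjusted p = 0.276) and the collagenase gene Mmp13 at −0.85 ± 0.40 (SE; adjusted p = 0.373). Pth1r was at 0.42 ± 0.09 (SE; adjusted p = 0.0609), and bone sialoprotein, Ibsp, at 0.70 ± 0.33 (SE; adjusted p = 0.375) on means of 1.01 and 1.62 CPM. Of 8 tested osteocyte genes 0 were called by edgeR, DESeq2 or limma-voom, and 0 had an unadjusted p under 0.05. Over all genes edgeR called 0.734% and 13.5% had an unadjusted p under 0.05, so for 8 genes this is near the background. The early osteocyte marker Pdpn had a log2 fold change of 0.09 ± 0.08, and Phex, a membrane peptidase of osteocytes that is mutated in X-linked hypophosphatemia, one of 0.20 ± 0.41 on a mean of 0.44 CPM.

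**Figure D3:**
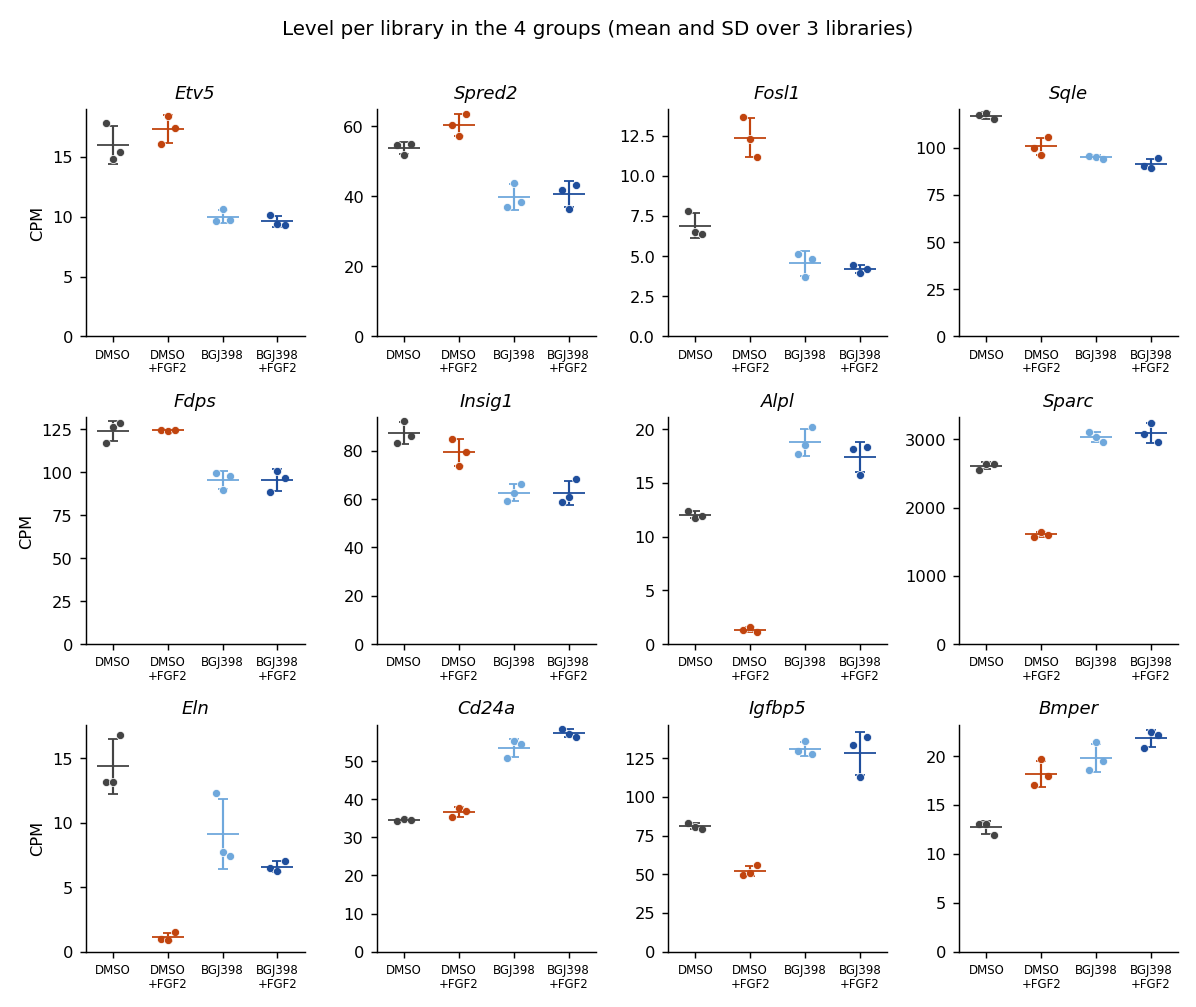
CPM of 12 genes in each of the 12 libraries, in 4 groups of 3; points are libraries, and bars show the group mean and SD. For Etv5, Spred2, Fosl1, Sqle, Fdps and Insig1 the BGJ398+FGF2 libraries lie below the DMSO libraries, for Alpl, Sparc, Cd24a, Igfbp5 and Bmper above them, and for Eln between DMSO and DMSO+FGF2.

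Secreted regulators of BMP and IGF signaling were among the genes with the highest fold changes. Igfbp5, an IGF-binding protein made by osteoblasts, had 83.3, 80.7 and 79.4 CPM in DMSO and 133, 113 and 139 CPM in BGJ398+FGF2. The groups did not overlap, and the log2 fold change was 0.66 ± 0.07 (SE; adjusted p = 0.00139). Its mean was 52.3 CPM in DMSO+FGF2 and 131 CPM in BGJ398. Of 16 tested genes of the IGF axis 2 were called higher and 0 lower, beside 0.351% and 0.383% of all genes, the other being the secreted protease Htra1 at 0.34 ± 0.07 (SE; adjusted p = 0.0473). Igfbp2 was at 0.64 ± 0.14 (SE; adjusted p = 0.0502) and Igf1 at 0.48 ± 0.12 (SE; adjusted p = 0.102).

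In the BMP and TGF-beta pathway 2 of 23 tested genes were called higher and 1 lower, beside 0.351% and 0.383% of all genes. Fst, follistatin, which binds activins and BMPs, had 18.8, 20.04 and 15.4 CPM and 26.4, 27.1 and 25.7 CPM, at 0.55 ± 0.09 (SE; adjusted p = 0.0191), beside 7.39 CPM in DMSO+FGF2. Tgfbr3, the coreceptor betaglycan, was the lower one, from 91.8, 84.7 and 84.05 CPM to 68.6, 58.01 and 73.9 CPM and at −0.38 ± 0.08 (SE; adjusted p = 0.0456). The BMP ligand Bmp4 and the BMP targets Id1 and Id3 had 0.13 ± 0.06, −0.34 ± 0.13 and −0.11 ± 0.08 and were not called. Bmper, a further secreted BMP regulator outside that list, had 13.04, 13.1 and 11.96 CPM in DMSO and 20.9, 22.5 and 22.1 CPM in BGJ398+FGF2, a log2 change of 0.78 ± 0.08 (SE; adjusted p = 0.00125). DMSO+FGF2, at 17.03, 19.6 and 17.9 CPM, was above the vehicle as well.

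Cell-surface and matrix genes were called in both directions. Cd24a, a small lipid-anchored glycoprotein, had the smallest p of the comparison. Its libraries were nearly identical within groups, at 34.2, 34.7 and 34.6 CPM in DMSO and 58.4, 57.2 and 56.3 CPM in BGJ398+FGF2, and its log2 fold change was 0.73 ± 0.06 (SE; adjusted p = 6.72e-05). DMSO+FGF2 averaged 36.7 CPM, close to the vehicle, and BGJ398 53.5 CPM. Fndc1, a fibronectin-domain protein, had 44.2, 50.4 and 50.6 CPM and 78.7, 65.6 and 90.5 CPM, at 0.69 ± 0.10 (SE; adjusted p = 0.0106). Matn3, a matrilin of cartilage, was at 0.72 ± 0.13 (SE; adjusted p = 0.0328), the serine protease-like Prss35 at 0.82 ± 0.12 (SE; adjusted p = 0.0107) and Perp, a membrane protein of cell junctions, at 0.86 ± 0.15 (SE; adjusted p = 0.0257). Angptl4, a secreted inhibitor of lipoprotein lipase, was at 0.90 ± 0.16 (SE; adjusted p = 0.0306), on means of 4.29 and 7.95 CPM. Of 18 tested elastic fiber genes 2 were higher and 2 lower, where all genes gave 0.351% and 0.383%. Apart from Eln these were Mfap5, a microfibril protein, at 0.87 ± 0.17 (SE; adjusted p = 0.0371), the crosslinking enzyme Lox at 0.38 ± 0.06 (SE; adjusted p = 0.0173) and its relative Loxl3 at −0.35 ± 0.07 (SE; adjusted p = 0.0379).

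Other lower genes covered several functions. Plekha6, a membrane-associated protein with a pleckstrin homology domain, had 26.3, 29.5 and 27.7 CPM in DMSO and 15.8, 17.9 and 16.3 CPM in BGJ398+FGF2, a log2 change of −0.74 ± 0.09 (SE; adjusted p = 0.00392). Jade2, a subunit of histone acetyltransferase complexes, had 47.8, 51.3 and 47.03 CPM and 33.4, 31.6 and 33.3 CPM, at −0.57 ± 0.07 (SE; adjusted p = 0.00286). In both genes the vehicle was near DMSO+FGF2, at 31.01 and 48.4 CPM, and the inhibited groups were lower. The clock gene Per2 was at −0.54 ± 0.09 (SE; adjusted p = 0.0191), the membrane peptidase Mme at −0.58 ± 0.10 (SE; adjusted p = 0.0257) and aldehyde oxidase, Aox1, at −0.75 ± 0.16 (SE; adjusted p = 0.048). Of 25 tested apoptosis regulators 1 was called in each direction, beside 0.351% higher and 0.383% lower of all genes. Bcl2, which protects cells from apoptosis, fell from 33.4, 33.6 and 33.03 to 26.8, 24.3 and 26.6 CPM, at −0.36 ± 0.07 (SE; adjusted p = 0.0379), and Bmf, which opposes it, rose from 12.5, 11.98 and 12.5 to 15.5, 17.3 and 18.4 CPM, at 0.47 ± 0.09 (SE; adjusted p = 0.0318).

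Some called genes differed from the vehicle mean in the same direction in all 3 other groups and were not called between DMSO+FGF2 and BGJ398. Sfrp2, a secreted Wnt antagonist, had 116, 115 and 115 CPM in DMSO and 77.6, 92.9 and 88.2 CPM in BGJ398+FGF2, at −0.42 ± 0.07 (SE; adjusted p = 0.0138), and 74.5 and 81.2 CPM on average in DMSO+FGF2 and BGJ398. It was the 1 called gene of 27 tested in the Wnt pathway, beside 0.734% of all genes. Thbs2, a matrix thrombospondin and the 1 call among 25 tested matrix glycoproteins (0.734% over all genes), had 349, 332 and 329 CPM and 424, 384 and 424 CPM, at 0.29 ± 0.06 (SE; adjusted p = 0.0372), with 433 and 419 CPM in the other two groups. Lox was also lowest in the vehicle, with means of 411 CPM in DMSO, 478 in DMSO+FGF2, 538 in BGJ398 and 534 in BGJ398+FGF2. All such comparisons share the 3 vehicle libraries.

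Of the 12 protein-coding genes of at least 5 CPM with the largest differences between DMSO+FGF2 and BGJ398 (6 in each direction), 6 had an interval within 1.5-fold of the vehicle, 4 were unresolved, and Alpl was past it and Eln short of it. Among those 6, the interval of Tnfrsf9 and Npnt included the vehicle level, as did that of Postn, a gene outside the 12. Postn, the matrix protein periostin, had 257, 272 and 269 CPM in DMSO and 289, 267 and 282 CPM in BGJ398+FGF2, beside 86.7, 86.5 and 101.1 CPM in DMSO+FGF2, and its log2 fold change against the vehicle was 0.07 ± 0.06 with an interval of −0.07 to 0.21. Npnt, a matrix ligand of integrins, had 424, 413 and 445 and 415, 350.2 and 434 CPM, at −0.10 ± 0.08. Tnfrsf9, a TNF-family receptor with a mean of 121 CPM in DMSO+FGF2, had 31.8, 35.3 and 30.02 and 30.5, 39.9 and 30.1 CPM, at 0.05 ± 0.11. The groups overlapped for all 3 genes. The chaperone Hspa5 was at 0.09 ± 0.07, the membrane semaphorin Sema7a at −0.11 ± 0.13 and the transcription factor Sox9 at 0.08 ± 0.12, each with an interval within 1.5-fold.

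For other strong responders the mean lay a little past the vehicle without a call. Spp1, osteopontin, had 402, 361 and 368 CPM in DMSO, 285, 355 and 309 CPM in BGJ398+FGF2 and 943, 1057 and 870.0 CPM in DMSO+FGF2, at −0.25 ± 0.08 (SE; adjusted p = 0.201). Tnc, tenascin C, had 316, 289.8 and 286 and 345, 315 and 409 CPM, at 0.26 ± 0.08 (SE; adjusted p = 0.173), and Car9, a hypoxia-responsive carbonic anhydrase, 227, 241 and 198 and 154, 203 and 179 CPM, at −0.32 ± 0.12 (SE; adjusted p = 0.26). Without the 3 deviating libraries these genes passed the test, at adjusted p = 0.00199 for Spp1, 0.00629 for Tnc and 0.00563 for Car9, and Tnc did so without BGJ398+FGF2 replicate 2 alone (adjusted p = 0.0464). Cp, the copper-carrying ferroxidase ceruloplasmin, was at −0.36 ± 0.08 (SE; adjusted p = 0.0524) and was called by DESeq2 (adjusted p = 0.00239), with no filter on low counts (adjusted p = 0.0129), among genes averaging at least 1 CPM (adjusted p = 0.048) and without the 3 deviating libraries (adjusted p = 0.0152). Others were unresolved: the nucleic acid sensor Zbp1 at −0.17 ± 0.20, the deaminase Cda at −0.38 ± 0.14, the matrix protein Hmcn1 at 0.21 ± 0.23 and the collagen gene Col27a1 at 0.37 ± 0.14. Hmga1, a chromatin protein at −0.37 ± 0.10 (SE; adjusted p = 0.115), was called by DESeq2 (adjusted p = 0.015), with no filter on low counts (adjusted p = 0.0151), without BGJ398+FGF2 replicate 2 (adjusted p = 0.0133) and without the 3 deviating libraries (adjusted p = 4.38e-05). It has 62.1% of its 31-base sequences in common with another gene.

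**Figure D4:**
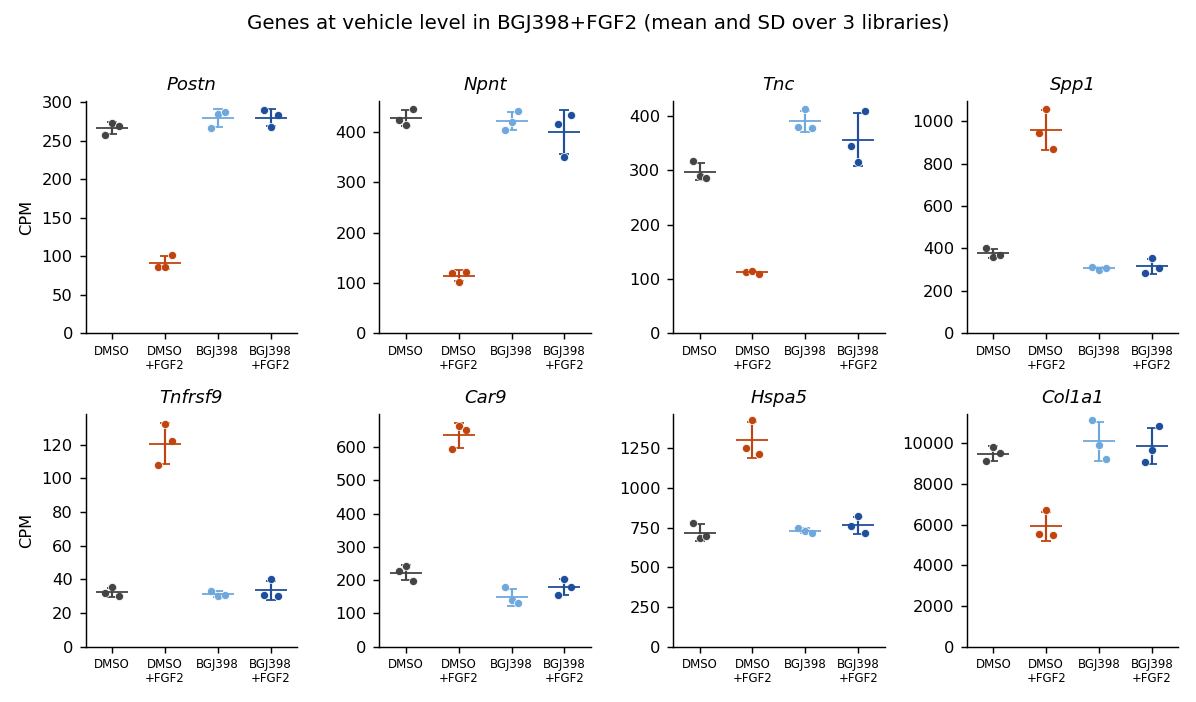
CPM of 8 genes that respond strongly to FGF2, in each of the 12 libraries; points are libraries, and bars show the group mean and SD over 3. In each panel the DMSO+FGF2 libraries lie apart from the other 9, and the interval of BGJ398+FGF2 against DMSO is within 1.5-fold.

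Several gene lists gave no call in BGJ398+FGF2 against the vehicle, which at 0.734% of all genes called is near the background for lists of this size and is no result about them; over all genes 13.5% had an unadjusted p under 0.05. Of 22 tested genes of the unfolded protein response, chaperones and folding enzymes of the endoplasmic reticulum, edgeR, DESeq2 and limma-voom called 0, with 2 at an unadjusted p under 0.05; 21 had an interval within 1.5-fold, and the median was 0.03. In the contrast of DMSO+FGF2 with BGJ398 14 of these 22 were called higher. Of 29 glycolysis and hypoxia genes the 3 tools called 0, with 3 at an unadjusted p under 0.05 and a median of −0.10; 25 were higher in DMSO+FGF2 than in BGJ398. The summed CPM of this list was 16175 to 18065 in DMSO and 14756 to 18491 in BGJ398+FGF2, which overlapped. Of 28 fibrillar collagen and collagen-processing genes the 3 tools called 0, with 6 at an unadjusted p under 0.05. Of 30 proliferation genes they called 0, with 2 at an unadjusted p under 0.05, and 29 had an interval within 1.5-fold. Integrins gave 0 of 16 by edgeR and limma-voom and 1 by DESeq2, with 5 at an unadjusted p under 0.05; that gene was Itgb3, the beta subunit of the vitronectin receptor, at −0.48 ± 0.10 (SE; adjusted p = 0.0531). Interferon-stimulated genes gave 0 of 30 by edgeR and limma-voom and 1 by DESeq2, with 1 at an unadjusted p under 0.05.

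Several called features are uncertain because their reads can belong to other genes. All 31-base sequences of Gm10221, Gm2004, Rps12l1, Ube2n-ps1 and Gm10359 occur in another gene, the partners being Atp5l, Gm14419, Rps12, Ube2n and Gapdh in that order; they are named here for that reason, after their values were seen. Gm10221 had 0 CPM in all DMSO libraries and Gm2004 had 0 CPM in all BGJ398+FGF2 libraries, so no fold change is given for them. Gm10359, the other gene called short of the vehicle, is a copy of the glycolytic gene Gapdh, which itself had a log2 change of −0.10 ± 0.11 (SE; adjusted p = 0.773). Among mitochondrially encoded genes mt-Co3, a subunit of cytochrome oxidase, was called higher, with 573, 893 and 829 CPM in DMSO and 1217, 1795 and 1435 CPM in BGJ398+FGF2, at 0.95 ± 0.15 (SE; adjusted p = 0.0138), and 99.9% of its 31-base sequences occur in another gene, Gm28437. The ATP synthase subunit mt-Atp8 was called lower, at −0.84 ± 0.17 (SE; adjusted p = 0.0445). These were the 1 higher and 1 lower call of 13 tested mitochondrially encoded genes, beside 0.351% and 0.383% of all genes. At an unadjusted p under 0.05 there were 10, 8 higher and 2 lower, beside 13.5% of all genes. In all, 10 of the 13 had a log2 fold change above 0, with a median of 0.17. Gm20390, called lower at −0.74 ± 0.15 (SE; adjusted p = 0.0415), shares 97.4% of its sequence with other genes.

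The inhibited groups with and without FGF2 were close to each other. By edgeR 0 of 12542 genes differed between BGJ398+FGF2 and BGJ398, 325 (2.59%) had an unadjusted p under 0.05, DESeq2 called 5 and limma-voom 0. BGJ398 alone differed from the vehicle for 41 genes (0.327%), in a comparison that uses the same 3 DMSO libraries. Its values stand beside those above for the members named: 0.63 ± 0.06 for Cd24a, 0.69 ± 0.07 for Igfbp5, 0.65 ± 0.10 for Alpl, −0.68 ± 0.10 for Etv5, −0.48 ± 0.07 for Insig1 and −0.65 ± 0.18 for Eln on the log2 scale. Of these Eln alone did not pass edgeR's test between BGJ398 and DMSO (adjusted p = 0.233).

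How many genes differed from the vehicle depended strongly on single libraries. Without DMSO replicate 1, 2 or 3 the count of 92 became 17, 14 and 11, and without BGJ398+FGF2 replicate 1, 2 or 3 it became 25, 79 and 64. Libraries outside the comparison, which share in the estimate of spread, mattered too: it was 50 and 40 without BGJ398 replicate 2 or 3, and 48 and 46 without DMSO+FGF2 replicate 1 or 3. With the 3 libraries that deviated together left out, a choice made on seeing them deviate, it was 861, of which 552 were past the vehicle and 28 short of it, and all 92 were among them. All 92 genes kept the sign of their fold change in every setting tried. They were picked for differing in these same libraries, which the settings largely reuse, so a change of sign was unlikely from the start. Cd24a, Igfbp5, Bmper and Jade2 passed the test under all 21 other settings and Etv5 and Plekha6 under 20. Many called genes were less stable over the 21 settings. Htra1 and Aox1 lost their calls in 14, Tgfbr3 and mt-Atp8 in 13, and Sparc, Bcl2 and Thbs2 in 12. Gm20390 did so in 11, Matn3 and Mfap5 in 10, and Angptl4, Bmf and Ets2 in 9. Alpl and Eln lost their calls when any single DMSO library was left out, with adjusted p of 0.102 to 0.146 and of 0.0602 to 0.146, Alpl also without BGJ398+FGF2 replicate 1 or 3, and Eln without BGJ398+FGF2 replicate 1. Insig1 lost its call without DMSO replicate 2 or 3 or BGJ398+FGF2 replicate 1, and Spred2 and Fosl1 without any single DMSO library, without BGJ398+FGF2 replicate 1 or 2, and in further settings, with adjusted p up to 0.189 for Spred2 and 0.215 for Fosl1.

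**Figure D5:**
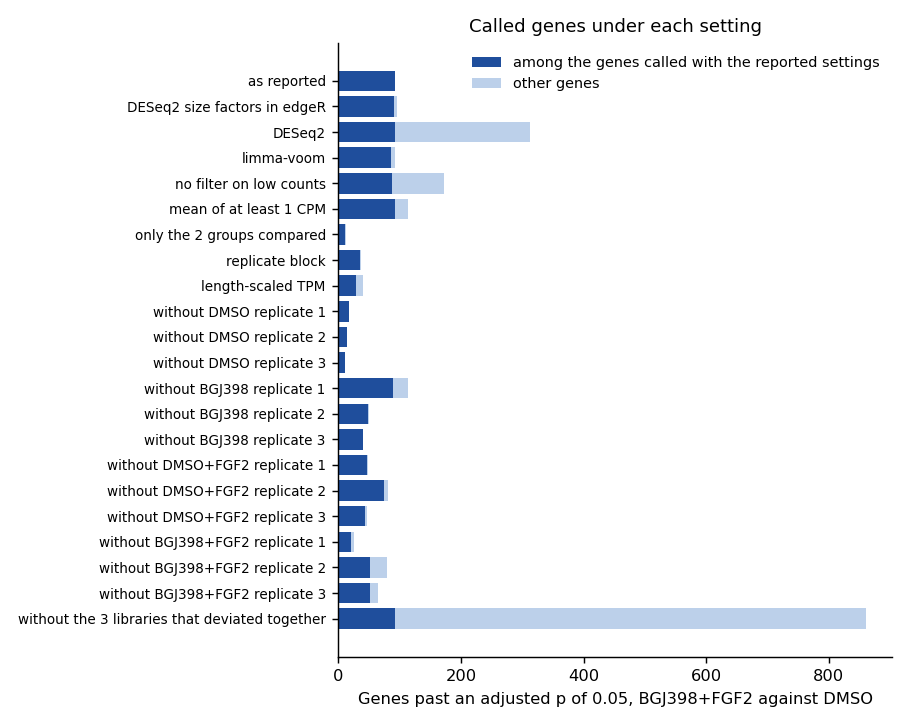
Number of genes past an adjusted p of 0.05 between BGJ398+FGF2 and DMSO under each setting (bars); the dark part counts genes that are also among the 92 of the reported fit and the light part other genes. The count runs from 11 without DMSO replicate 3 to 861 without the 3 libraries that deviated together.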

How the data were processed

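Poly(A) RNA of 12 Ocy454 libraries in 4 groups of 3 was sequenced. Estimated counts (NumReads) and TPM per transcript are as deposited by the authors, 1 Salmon table per library, per the file headers; the submitters' processing notes name GRCm39, while the sources used here give no version, trimming or strand setting. Effective lengths came from the same deposited tables. Transcript IDs were given gene names from GENCODE M21 (GRCm38): 114656 of 116178 matched, and the 1522 others held 0.499% to 0.641% of reads and were left out. NumReads were summed per gene, rounded and tested with edgeR 4.0.16 in R 4.3.3 (TMM scaling, expression filter by group, quasi-likelihood test, Benjamini-Hochberg adjustment) in 1 model with a mean for each of the 4 groups (12 libraries, residual df 8); 12542 genes were tested, and the biological coefficient of variation was 8.49%. SE is the log2 fold change divided by the square root of F. A gene was called at an adjusted p under 0.05, unresolved where its 95% interval passed 1.5-fold without a call. On simulated data for this comparison 12439 genes were tested, with changes set in a small subset of them. In that subset edgeR recovered 80% of 1.5-fold and 93% of 2-fold changes, and the intervals covered 92% of true values. The simulation held no libraries that deviate together, so these rates may not hold for the real libraries. Alternatives were DESeq2 1.42.0, limma-voom (limma 3.58.1), other scaling, filters, margins, a replicate block, length-scaled TPM and leaving out libraries.

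The members and the gene lists were chosen with earlier results of these data known. Named genes were the 12 highest and 12 lowest fold changes among called protein-coding genes of at least 5 CPM without overlap, up to 3 called members of each list by p, the 6 highest and 6 lowest between DMSO+FGF2 and BGJ398, fixed pathway genes, and list members printed as not passing the test; the further called sterol genes, Loxl3 and the copies were named after their values were seen. Some genes that the rule names are not reported here. Promoters are the 250 bases before the RefSeq gene start, known for 27 of 48 lower and 30 of 44 higher genes.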

Additional observations from a re-analysis of the deposited data

How the results depend on the processing

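The number of genes called between BGJ398+FGF2 and DMSO moved widely over the 21 other settings. All 92 kept their sign in each, which is little evidence since the settings largely reuse the libraries that picked them. DESeq2 called 313 (164 higher, 149 lower), with 162 past the vehicle and 18 short of it. With no filter on low counts it was 173 (77 higher, 96 lower), 94 past and 9 short. In a fit of only the 2 groups it was 13 (6 higher, 7 lower), with 5 past, 1 short and 0 sterol genes. Length-scaled TPM gave 40 (23 higher, 17 lower), with 24 past, 4 short, 1357 within 1.5-fold and 4 sterol genes. Without the 3 libraries that deviated together, chosen after seeing the data, it was 861 (345 higher, 516 lower), with 552 past, 28 short, 15 sterol genes and 3699 genes called between DMSO+FGF2 and BGJ398. The cause was not tested in any of these. DESeq2's size factors, limma-voom, a mean of at least 1 CPM and margins of another width moved none of these counts by more than 1.5 times. Leaving out 1 library at a time gave 11 to 114 calls (5 to 55 higher, 4 to 59 lower), 1518 to 3182 between DMSO+FGF2 and BGJ398, 7 to 75 past, 0 to 4 short, 1307 to 2751 within 1.5-fold and 0 to 9 sterol genes; the lowest call count was without DMSO replicate 3.

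With the replicate number as a block there were 36 calls (18 higher, 18 lower), 23 past the vehicle and 5 sterol genes. Same-numbered libraries deviated together little, with correlations of −0.15 to 0.24, so the numbers were not taken to pair the samples. Depth limits genes of few reads, such as Spry4, Etv1 and Phex, whose intervals are wide.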
